A study of Mus musculus with 12 samples.

Results

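Wnt signalling genes were followed by RNA-seq in ZHBTc4 cells, a mouse embryonic stem cell line: 10 genes out of the 53379 of the deposited tables. They were chosen by symbol with earlier results of these data known, so their counts beside shares of all genes are a description and no test. They were the ligands Wnt3, Wnt4 and Wnt8a, the secreted antagonists Dkk1 and Sfrp1, the transcription factors Tcf7 and Lef1, and the targets Axin2, Nkd1 and Sp5. All 10 were found once in every table, and all 10 passed the filter on low counts. There were 6 groups of 2 libraries: Phf6 KO and WT cells with doxycycline, Phf6 KO and WT cells with retinoic acid, and Phf6 KO and WT cells left untreated. Doxycycline was given for 2 days, at 0.5 µg/ml by the sample labels and 0.5 mg/ml by their protocol text. All-trans retinoic acid was given for 4 days at 10 mM, as the protocol text has it, in medium without LIF, the cytokine that keeps mouse embryonic stem cells undifferentiated. All 6 groups share the ZHBTc4 line, of 129/Ola background, whose only source of Oct4 (gene Pou5f1) is a transgene that is silenced by doxycycline. Feeder cells were used only in the first passages. The labels do not say how many Phf6 KO lines or clones were sequenced, nor that replicates come from separate cultures; the spread behind each p-value is that between these libraries and may be technical.

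Wnt proteins are secreted ligands that bind Frizzled receptors together with the coreceptors LRP5 and LRP6. In the canonical pathway this stops the destruction complex, built on Axin, from marking β-catenin for breakdown, and β-catenin then enters the nucleus and acts with TCF and LEF factors on target genes. Several targets feed back on the pathway: Axin2 rebuilds the destruction complex and Nkd1 binds Dishevelled. In mouse embryonic stem cells the pathway favours self-renewal, and in the mouse embryo Wnt3 is needed to form the primitive streak.

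Total counts were 15799517 to 21441996 per library, and replicates correlated at 0.99 on the log2 scale of CPM, read counts scaled to library size. A library's limit for a count of 0, set at 3 counts, was 0.132 to 0.204 CPM, for counting error only. Phf6 had 7.38 and 8.18 CPM in KO cells with doxycycline, 5.89 and 5.96 in KO cells with retinoic acid and 4.48 and 6.50 in untreated KO cells, against 29.9 to 42.7 CPM in the 6 WT libraries. It was therefore low in every library labelled KO. Pou5f1 had 13 and 14.3 CPM in KO and 34.0 and 46.3 CPM in WT cells with doxycycline, against 972 to 1195 CPM in the 8 other libraries. With doxycycline it was thus lower in KO cells, by a log2 difference of -1.57 ± 0.13 (edgeR adjusted p = 1.8e-06). KO and WT cells with doxycycline therefore differ in remaining Pou5f1 RNA, and its part in the doxycycline differences below was not tested. On chromosome 1, where none of the 10 genes lies, the median log2 difference of KO over WT was -0.46 in each condition.

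Expression of the 10 genes differed between KO and WT cells most often with retinoic acid. There 8 of 10 passed edgeR's quasi-likelihood test (Benjamini-Hochberg adjusted p under 0.05 over all 17884 genes tested), against 38.8% of all genes. Of these, 6 were lower in KO cells (Wnt8a, Wnt3, Sp5, Lef1, Axin2 and Tcf7), as were 20% of all genes, and 2 were higher (Dkk1 and Sfrp1), as were 18.8% of all genes. With doxycycline 3 of 10 passed, against 37% of all genes. These were Sp5, Tcf7 and Sfrp1, all higher in KO cells; 17.9% of all genes were higher and 19.1% lower. In untreated cells only Nkd1 passed, 1 of 10 against 30% of all genes, and was higher in KO cells (15.2% of all genes were higher and 14.9% lower). The median log2 difference of the 10 genes was -0.67 with retinoic acid, 0.11 with doxycycline and 0.07 untreated, and that of all genes was -0.01, 0.00 and 0.02.

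**Figure D1:**
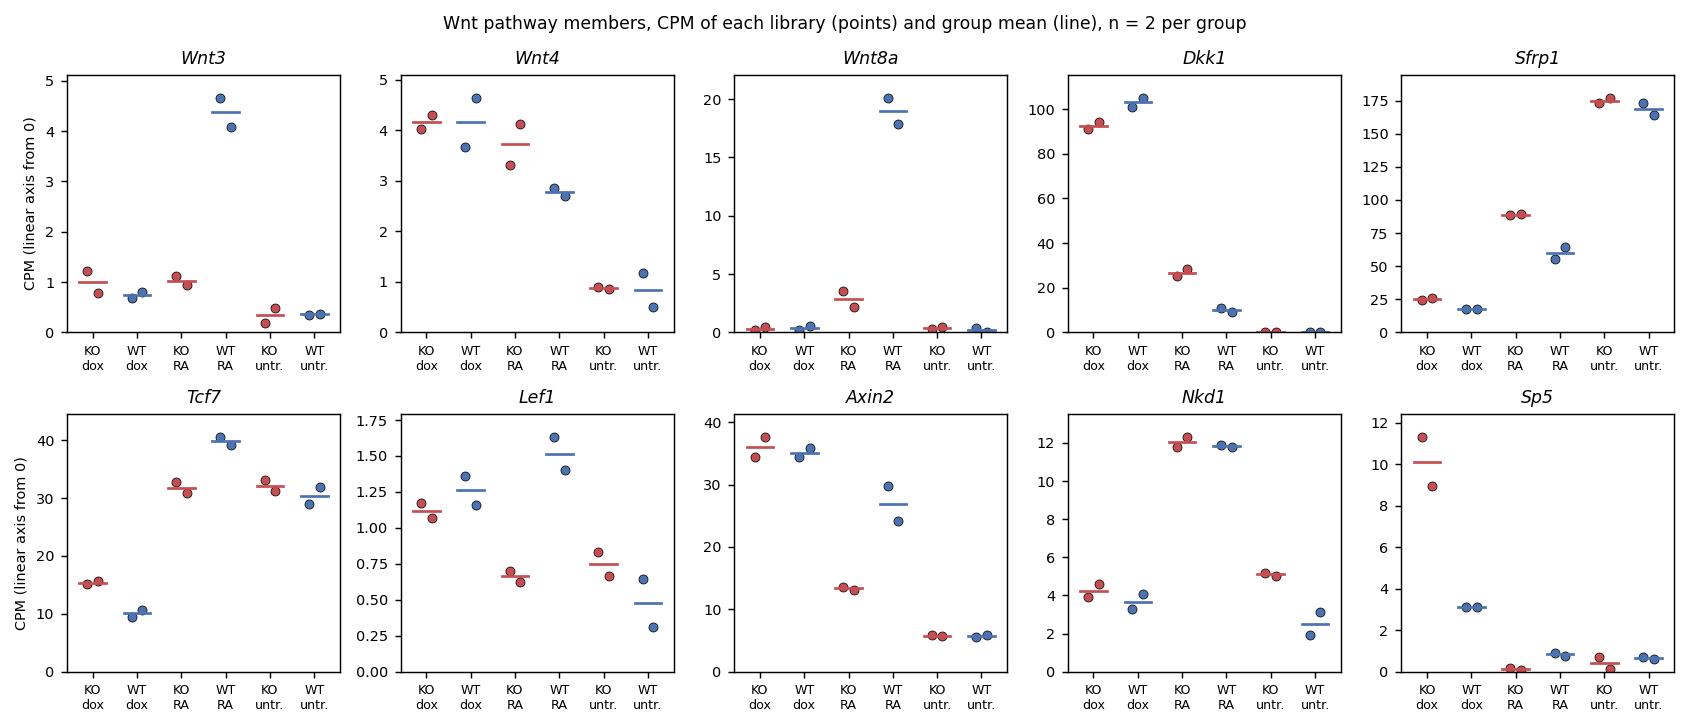
CPM of each of the 10 genes (linear axis from 0, scaled to each gene) in each library (points) with group means (lines), 2 libraries per group. Wnt8a stands at 20.1 and 17.9 CPM in WT cells with retinoic acid and at most at 3.51 CPM in every other library, and Sp5 is highest in KO cells with doxycycline.

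Levels can be compared between genes per length, in TPM, which also divides by transcript length. In untreated cells Sfrp1 led, at a mean of 51.9 TPM in KO and 48.6 TPM in WT cells, followed by Tcf7 at 18.3 TPM in KO and 17.0 TPM in WT cells, and the 8 other genes were at or below a mean of 2.82 TPM. With doxycycline Dkk1 led, at 56.0 TPM in KO and 60.6 TPM in WT cells, followed by Axin2 at 16.8 TPM in KO and 14.5 TPM in WT cells. With retinoic acid the order differed by genotype. In KO cells Sfrp1 (37.8 TPM), Tcf7 (26.1 TPM) and Dkk1 (21.3 TPM) stood first, and in WT cells Tcf7 (32.0 TPM), Sfrp1 (24.9 TPM) and Wnt8a (21.2 TPM), with no overlap between neighbours among these first 3 in either genotype. Wnt3, Wnt4, Lef1 and Sp5 had means of at most 2.62 TPM in both genotypes with retinoic acid.

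Among the ligands, Wnt8a, which is made around the primitive streak of the mouse embryo, differed most between the genotypes. It had 3.51 and 2.14 CPM in KO cells with retinoic acid, against 20.1 and 17.9 CPM in WT cells with retinoic acid. Libraries with doxycycline had 0.168 and 0.478 CPM in KO and 0.204 and 0.555 CPM in WT cells, and untreated libraries 0.256 and 0.486 CPM in KO and 0.353 and 0.0622 CPM in WT cells. The retinoic acid groups did not overlap with each other or with any other group, and the 4 remaining groups overlapped near the limit of detection. With retinoic acid Wnt8a was lower in KO cells by a log2 difference of -2.73 ± 0.21 (SE; adjusted p = 1.2e-09), with 116 counts over the KO and 816 over the WT libraries. Retinoic acid over untreated gave a log2 change of 2.91 ± 0.43 in KO cells (adjusted p = 3.5e-06) and 6.45 ± 0.35 in WT cells (adjusted p = 4.6e-13). Only 12 counts over the untreated KO and 7 over the untreated WT libraries stand under these changes, so the ratios of summed counts were 7.61 in KO cells (95% exact interval 4.22 to 15.2) and 91.6 in WT cells (43.5 to 225), for counting error only. The response was smaller in KO cells, with a difference of responses of -3.54 ± 0.84 (adjusted p = 0.0052). Without KO untreated replicate 2 it was -3.00 with an adjusted p of 0.15.

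Wnt3 was also highest in WT cells with retinoic acid, at lower levels. It had 1.12 and 0.941 CPM in KO cells with retinoic acid, against 4.66 and 4.09 CPM in WT cells with retinoic acid. With doxycycline it had 1.23 and 0.776 CPM in KO and 0.680 and 0.807 CPM in WT cells, and untreated 0.192 and 0.486 CPM in KO and 0.353 and 0.373 CPM in WT cells. WT cells with retinoic acid stood above every other group, and KO cells with retinoic acid overlapped KO cells with doxycycline. The KO difference with retinoic acid was -2.07 ± 0.28 (log2; adjusted p = 8.7e-07), on 42 counts in KO and 188 in WT cells. Over untreated cells Wnt3 rose with retinoic acid by 1.58 ± 0.45 in KO cells (adjusted p = 0.0028) and 3.57 ± 0.36 in WT cells (adjusted p = 6.2e-10). The difference of these responses, -1.99 ± 0.67, passed only narrowly (adjusted p = 0.038). It missed the threshold without any 1 of 7 libraries, with values of -2.12 to -1.18 and adjusted p of 0.053 to 0.53; the lowest size came without KO untreated replicate 2. With doxycycline Wnt3 rose in KO cells by 1.54 ± 0.47 (adjusted p = 0.0053) and had a change of 1.04 ± 0.48 in WT cells (adjusted p = 0.064). The doxycycline call in KO cells was lost without KO untreated replicate 1 (1.05, adjusted p = 0.094) or KO doxycycline replicate 1 (1.17, adjusted p = 0.089), and without KO untreated replicate 2 the change was 2.35. The retinoic acid call in KO cells was lost without KO untreated replicate 1 (1.05, adjusted p = 0.071). By limma on log2(TPM + 0.5), a scale that understates changes of low genes, Wnt3 rose by 0.58 with doxycycline in KO cells, and with retinoic acid by 0.82 in KO and 2.26 in WT cells.

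Wnt4, a ligand known for its part in kidney and female gonad development, rose with both treatments in both lines. With doxycycline it had 4.02 and 4.30 CPM in KO and 3.67 and 4.64 CPM in WT cells, with retinoic acid 3.32 and 4.13 CPM in KO and 2.86 and 2.69 CPM in WT cells, and untreated 0.896 and 0.850 CPM in KO and 1.18 and 0.498 CPM in WT cells. All treated libraries stood above all untreated ones. It rose with doxycycline by 2.24 ± 0.29 in KO and 2.30 ± 0.29 in WT cells, and with retinoic acid by 2.08 ± 0.29 in KO and 1.71 ± 0.30 in WT cells (log2; the largest adjusted p was 1.1e-05). By limma on TPM the doxycycline change was 1.31 in each line. KO over WT missed the threshold in all 3 conditions. With retinoic acid, where the KO libraries stood above the WT libraries, the difference was 0.42 ± 0.22 (adjusted p = 0.14), with a ratio of summed counts of 1.34 (95% interval 1.04 to 1.71, counting error only).

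Of the secreted antagonists, Dkk1, which binds LRP5 and LRP6 and blocks Wnt signalling, was almost undetected in untreated cells. It had 90.9 and 94.4 CPM in KO and 101 and 105 CPM in WT cells with doxycycline. With retinoic acid it had 25.3 and 28.2 CPM in KO and 10.8 and 9.07 CPM in WT cells, and untreated 0.320 and 0.243 CPM in KO and 0 and 0.124 CPM in WT cells. The 3 conditions were far apart in both genotypes, and KO cells stood above WT cells with retinoic acid but below them with doxycycline. The untreated WT libraries held 2 counts in all and the untreated KO libraries 9, so changes over untreated are given as ratios of summed counts. With doxycycline over untreated the ratio was 329 in KO cells (95% interval 174 to 723) and 1659 in WT cells (474 to 14155). With retinoic acid over untreated it was 95 in KO cells (49.9 to 209) and 160 in WT cells (45.5 to 1371). All 4 responses passed the test (adjusted p at most 6.5e-17), and neither difference of responses did (adjusted p = 0.086 for doxycycline and 0.68 for retinoic acid). The difference of retinoic acid responses turned round by limma on TPM, where it passed at 1.12 (adjusted p = 0.0033), against -0.67 by edgeR, so no direction is given for it. The changes in WT cells were also smaller by limma on TPM, at 6.84 with doxycycline and 3.94 with retinoic acid on the log2 scale. Against WT cells, Dkk1 was higher in KO cells with retinoic acid by 1.42 ± 0.096 (log2; adjusted p = 1.8e-12). With doxycycline the difference was -0.16 ± 0.066 and missed the threshold (adjusted p = 0.065). It passed at -0.17 with no filter on low counts or without either WT untreated library (adjusted p = 0.047 each), and barely so without chromosome 1 genes (adjusted p = 0.05). In untreated cells it was 2.09 ± 0.91 (adjusted p = 0.085), a ratio of 4.52 with an interval of 0.961 to 44.1. Without WT untreated replicate 2, which holds both WT counts, the untreated difference and the difference of doxycycline responses passed (adjusted p = 0.041 and 0.044); their sizes then rest on a group without a count.

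Sfrp1, which binds Wnt proteins outside the cell, went the other way with treatment. It had 24.5 and 25.6 CPM in KO and 18.0 and 17.8 CPM in WT cells with doxycycline, 88.3 and 89.7 CPM in KO and 55.3 and 64.7 CPM in WT cells with retinoic acid, and 173 and 177 CPM in KO and 173 and 164 CPM in WT untreated cells. Untreated KO and WT cells overlapped, and KO cells stood above WT cells in both treatments. Sfrp1 fell with both treatments, with log2 changes of -2.81 ± 0.068 in KO and -3.23 ± 0.072 in WT cells for doxycycline and of -0.98 ± 0.058 in KO and -1.49 ± 0.060 in WT cells for retinoic acid (largest adjusted p 8.1e-15). By limma on TPM the retinoic acid changes were -0.45 in KO and -0.96 in WT cells, and both passed. KO over WT was 0.48 ± 0.086 with doxycycline (adjusted p = 4.8e-05), 0.57 ± 0.061 with retinoic acid (adjusted p = 1.5e-08) and 0.06 ± 0.057 untreated (adjusted p = 0.49). The fall was smaller in KO cells by 0.43 ± 0.10 with doxycycline (adjusted p = 0.0035; 0.40 with an adjusted p of 0.075 by limma on TPM) and by 0.51 ± 0.083 with retinoic acid (adjusted p = 4.3e-05).

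**Figure D2:**
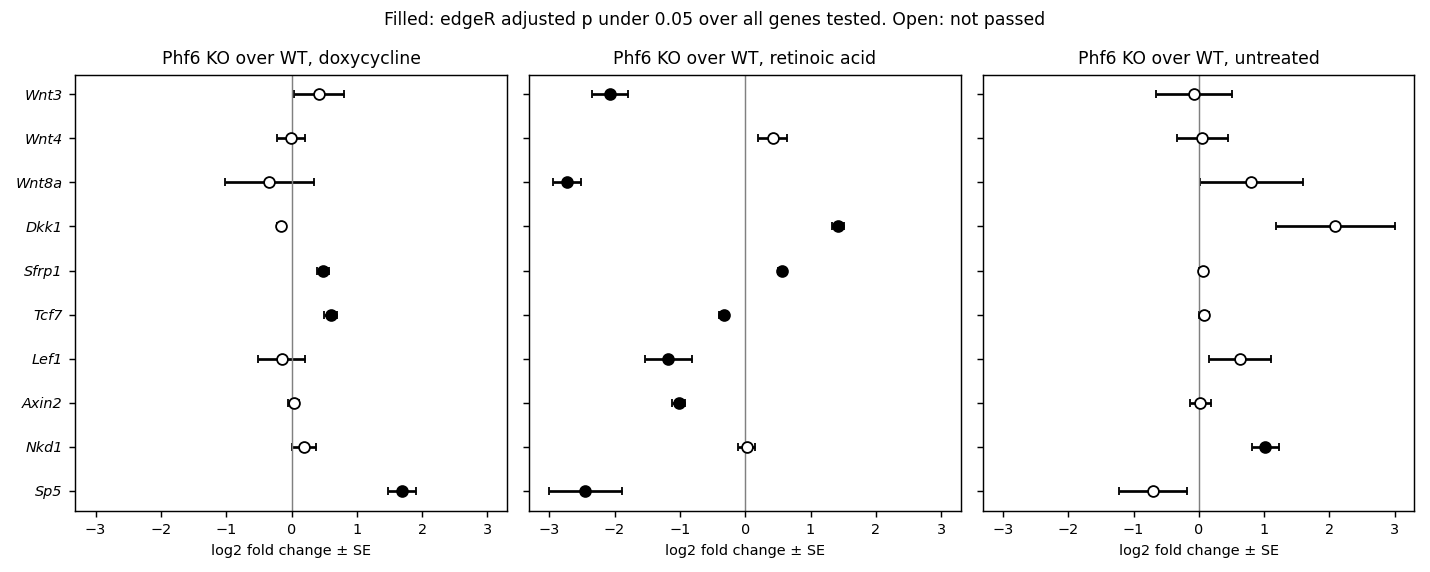
Log2 fold change of KO over WT (points, bars ± SE) for each of the 10 genes with doxycycline, with retinoic acid and untreated; filled points have an edgeR adjusted p under 0.05. With retinoic acid 6 filled points lie below 0 and 2 above, with doxycycline 3 lie above 0, and untreated only Nkd1 is filled.

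Of the transcription factors that carry the signal to DNA, Tcf7 (the protein TCF-1) had 15.2 and 15.6 CPM in KO and 9.53 and 10.6 CPM in WT cells with doxycycline. It had 32.7 and 30.9 CPM in KO and 40.5 and 39.2 CPM in WT cells with retinoic acid, and 33.1 and 31.2 CPM in KO and 28.9 and 31.9 CPM in WT untreated cells. KO cells stood above WT cells with doxycycline and below them with retinoic acid, and the untreated groups overlapped. KO over WT was 0.60 ± 0.10 with doxycycline (log2; adjusted p = 3.1e-05), -0.33 ± 0.074 with retinoic acid (adjusted p = 0.00083) and 0.08 ± 0.080 untreated (adjusted p = 0.49). Doxycycline lowered Tcf7 in both lines, with changes of -1.06 ± 0.088 in KO and -1.58 ± 0.095 in WT cells, and the difference of responses was 0.52 ± 0.13 (adjusted p = 0.0051). Retinoic acid gave -0.01 ± 0.078 in KO cells (adjusted p = 0.88) and 0.39 ± 0.076 in WT cells (adjusted p = 4.4e-05). On the TPM scale, where the median gene stood 0.49 higher in KO and 0.50 higher in WT cells with retinoic acid, these became 0.50 and 0.89. The difference of retinoic acid responses, -0.41 ± 0.11 (adjusted p = 0.0089), missed the threshold without WT untreated replicate 1 (-0.33, adjusted p = 0.078), KO untreated replicate 1 (-0.36, 0.067) or KO retinoic acid replicate 2 (-0.37, 0.060), and with DESeq2 (-0.38, 0.10) or limma on TPM (-0.39, 0.076).

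Lef1, another partner of β-catenin on DNA, was low throughout, with 5 to 37 counts per library. It had 1.17 and 1.07 CPM in KO and 1.36 and 1.16 CPM in WT cells with doxycycline, 0.701 and 0.627 CPM in KO and 1.63 and 1.40 CPM in WT cells with retinoic acid, and 0.832 and 0.668 CPM in KO and 0.646 and 0.311 CPM in WT untreated cells. WT cells with retinoic acid were the highest group and KO cells with retinoic acid did not overlap them. KO over WT with retinoic acid was -1.18 ± 0.36 (log2; adjusted p = 0.011) on 27 KO and 65 WT counts. The call was lost without WT retinoic acid replicate 1 (-1.06, adjusted p = 0.089) or KO retinoic acid replicate 2 (-1.10, 0.072), with DESeq2 (-1.17, 0.10) and with limma on TPM (-0.62, 0.094). Lef1 rose in WT cells with retinoic acid (1.64 ± 0.40, adjusted p = 0.00068) and with doxycycline (1.36 ± 0.43, adjusted p = 0.0067). In KO cells the changes were -0.17 ± 0.43 with retinoic acid (adjusted p = 0.73) and 0.58 ± 0.40 with doxycycline (adjusted p = 0.21). The doxycycline call in WT cells was lost without WT untreated replicate 2 (0.95, adjusted p = 0.099) and, at the threshold, with DESeq2 (1.35, adjusted p = 0.05). By limma on TPM the WT changes were 0.96 with retinoic acid and 0.74 with doxycycline, and both passed. The difference of retinoic acid responses was -1.80 ± 0.60 (adjusted p = 0.035) and missed the threshold without any 1 of 6 libraries, with values of -1.95 to -1.38 and adjusted p of 0.056 to 0.17. It was also lost with no filter on low counts (-1.82, adjusted p = 0.052) and with limma on TPM (-1.07, adjusted p = 0.088). For doxycycline it was -0.78 ± 0.59 (adjusted p = 0.42).

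Among the targets, Axin2, the scaffold of the destruction complex that canonical signalling induces in many tissues, depended on genotype with retinoic acid and not detectably otherwise. It had 34.5 and 37.6 CPM in KO and 34.4 and 35.9 CPM in WT cells with doxycycline, and 5.83 and 5.77 CPM in KO and 5.58 and 5.85 CPM in WT untreated cells. With retinoic acid it had 13.6 and 13.1 CPM in KO and 29.8 and 24.1 CPM in WT cells. KO and WT cells overlapped with doxycycline and untreated, and were apart with retinoic acid. KO over WT was -1.02 ± 0.098 with retinoic acid (log2; adjusted p = 2.2e-09), 0.03 ± 0.088 with doxycycline (adjusted p = 0.81) and 0.02 ± 0.16 untreated (adjusted p = 0.95). For the doxycycline comparison the ratio of summed counts, 1.03, had an interval of 0.942 to 1.11. Axin2 rose with doxycycline by 2.63 ± 0.12 in KO and 2.62 ± 0.12 in WT cells, and with retinoic acid by 1.20 ± 0.13 in KO and 2.24 ± 0.12 in WT cells. The difference of retinoic acid responses was -1.04 ± 0.19 (adjusted p = 0.00015), and that of doxycycline responses 0.01 ± 0.18 (adjusted p = 0.99).

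Nkd1 had 3.91 and 4.6 CPM in KO and 3.27 and 4.08 CPM in WT cells with doxycycline, 11.8 and 12.3 CPM in KO and 11.9 and 11.8 CPM in WT cells with retinoic acid, and 5.19 and 5.04 CPM in KO and 1.94 and 3.11 CPM in WT untreated cells. It was thus apart between genotypes in untreated cells and overlapped in both treatments. KO over WT was 1.02 ± 0.20 untreated (log2; adjusted p = 0.00024), 0.19 ± 0.19 with doxycycline (adjusted p = 0.47) and 0.02 ± 0.13 with retinoic acid (adjusted p = 0.91), the last with a ratio of summed counts of 1.02 (0.894 to 1.15). Nkd1 rose with retinoic acid by 1.23 ± 0.15 in KO and 2.23 ± 0.17 in WT cells, and the difference of these responses was -1.0 ± 0.24 (adjusted p = 0.0035). Without WT untreated replicate 1 that difference was -0.69 with an adjusted p of 0.080. With doxycycline the change was -0.27 ± 0.18 in KO cells (adjusted p = 0.21) and 0.57 ± 0.21 in WT cells (adjusted p = 0.022). The WT change was 0.26 without WT untreated replicate 1 (adjusted p = 0.38), 0.38 without WT doxycycline replicate 2 (adjusted p = 0.26) and 0.94 without WT untreated replicate 2. With all 12 libraries the WT call was lost with upper-quartile scaling (0.45, adjusted p = 0.067) and with DESeq2 (0.53, adjusted p = 0.096), as it was in a fit of only the libraries compared (0.57, adjusted p = 0.059). The difference of doxycycline responses, -0.83 ± 0.28 (adjusted p = 0.035), missed the threshold without any 1 of 5 libraries, with values of -0.85 to -0.52 and adjusted p of 0.072 to 0.26; the smallest came without WT untreated replicate 1. It also missed it with DESeq2 (-0.81, adjusted p = 0.13), upper-quartile scaling (-0.77, adjusted p = 0.052) and only the libraries compared (-0.82, adjusted p = 0.075).

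Sp5, a zinc finger transcription factor and direct target of the pathway, was higher in KO than in WT cells with doxycycline and lower with retinoic acid. It had 11.3 and 8.96 CPM in KO and 3.13 and 3.13 CPM in WT cells with doxycycline. With retinoic acid it had 0.187 and 0.104 CPM in KO and 0.924 and 0.748 CPM in WT cells, and untreated 0.704 and 0.121 CPM in KO and 0.705 and 0.622 CPM in WT cells. KO cells stood above WT cells with doxycycline and below them with retinoic acid, where the KO libraries held 4 and 2 counts. KO over WT was 1.69 ± 0.22 with doxycycline (log2; adjusted p = 4.4e-07) and -2.45 ± 0.56 with retinoic acid (adjusted p = 0.00084), the one with retinoic acid beside a ratio of summed counts of 0.174 (95% interval 0.0606 to 0.422). By limma on TPM the retinoic acid difference was -0.99 (adjusted p = 0.0089). Untreated it was -0.70 ± 0.52 (adjusted p = 0.35), and -2.40 without KO untreated replicate 1 (adjusted p = 0.025). Sp5 rose with doxycycline by 4.62 ± 0.32 in KO and 2.22 ± 0.34 in WT cells, and the difference of responses was 2.40 ± 0.57 (adjusted p = 0.0031; 4.08 without KO untreated replicate 1). With retinoic acid the change was -1.41 ± 0.69 in KO (adjusted p = 0.067) and 0.33 ± 0.42 in WT cells (adjusted p = 0.48), and the difference of responses was -1.75 ± 0.81 (adjusted p = 0.15). Without KO untreated replicate 2 the KO change was -2.23 (adjusted p = 0.0036) and the difference of responses -2.53 (adjusted p = 0.022).

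Promoter sequences (RefSeq, GRCm38.p6, 250 bases before to 50 after a gene's start) were found for 8 of the 10 genes, in 12 windows; Wnt8a and Sfrp1 had no entry. They were searched on both strands for short forms of the motif that TCF and LEF factors bind: CTTTGAT (held by 3.73% of the 32851 windows in the table), CTTTGAA (held by 5.14%), CTTTGTT (held by 5.85%) and CTTTGTA (held by 3.63%). These words share their opening letters, so none overlaps another on the same strand. The words, and the 3 sequences shown, were chosen after values and matches had been seen. Any of the 4 words was held by 16.9% of all windows and by 4 of the 12 windows here. Sp5 and Dkk1 had 2 matches each, Wnt3 and 1 of the 4 Lef1 windows 1 each, and the windows of Axin2, Nkd1, Tcf7 and Wnt4 had none. The Lef1 window with the match belongs to a start 45823 bases inside the gene as GENCODE M21 gives it, and Nkd1's only window to a start 6279 bases inside. The Sp5 window lies at chr2:70474673-70474972 (plus strand) and its matches begin at -222 (AACAAAG, which reads CTTTGTT on the opposite strand) and -104 (CTTTGAT) relative to the start. In Dkk1 (minus strand) they begin at -117 and -98 relative to RefSeq's start, which lies 169 bases inside the GENCODE gene; the 30 bases around them are at chr19:30549586-30549615. The Axin2 window, at chr11:108920099-108920398 (plus strand), is shown as that of a gene which rose in all 4 treatment comparisons and has none of the 4 words here. Capitals mark the matches, and all 3 sequences read 5′ to 3′ along the gene.
Sp5: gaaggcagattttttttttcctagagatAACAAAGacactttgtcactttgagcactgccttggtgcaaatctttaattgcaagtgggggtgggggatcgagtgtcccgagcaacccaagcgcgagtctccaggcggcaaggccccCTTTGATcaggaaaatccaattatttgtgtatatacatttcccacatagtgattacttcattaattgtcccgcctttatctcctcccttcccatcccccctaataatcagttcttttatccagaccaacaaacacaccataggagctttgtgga
Dkk1: agCTTTGAAatcccatcccggCTTTGTTgt
Axin2: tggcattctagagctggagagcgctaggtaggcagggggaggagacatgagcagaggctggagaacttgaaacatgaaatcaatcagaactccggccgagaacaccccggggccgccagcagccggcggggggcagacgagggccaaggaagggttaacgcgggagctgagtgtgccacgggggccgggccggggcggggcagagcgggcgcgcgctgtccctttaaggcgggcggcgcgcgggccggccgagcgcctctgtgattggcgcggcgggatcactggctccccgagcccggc
A match in these windows is a description of letters and not a measured binding site.

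Set against untreated cells, most of the 10 genes changed with treatment, as did most genes. With doxycycline 7 of 10 passed in KO cells, against 62.3% of all genes: 5 were higher and 2 lower, against 31.2% of all genes each way. In WT cells 8 of 10 passed with doxycycline, against 63% of all genes: 6 were higher and 2 lower, against 31.8% and 31.3% of all genes. With retinoic acid 7 of 10 passed in KO cells, against 75.5% of all genes: 6 were higher and 1 lower, against 40.9% and 34.6% of all genes. In WT cells 9 of 10 passed with retinoic acid, against 73.9% of all genes: 8 were higher and 1 lower, against 41% and 32.9% of all genes. Each count of genes passed lies within 2 genes of what the share of all genes would give for 10. The KO and WT comparisons with one treatment share no library, but both treatments of a line share that line's untreated libraries. The protocols in the labels name a Qiagen RNeasy kit for the retinoic acid libraries and not for the others. Kit and retinoic acid therefore cannot be told apart in the changes over untreated cells. The retinoic acid cells were also kept 4 days in medium without LIF. Effects of retinoic acid, lack of LIF and time in culture cannot be told apart in those changes or in their KO minus WT differences.

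The response to treatment differed between KO and WT cells for 4 of 10 genes with doxycycline, against 19.2% of all genes, and for 7 of 10 with retinoic acid, against 17.7% of all genes. With retinoic acid 6 responses were more negative in KO cells (Wnt8a, Wnt3, Lef1, Axin2, Nkd1 and Tcf7), as were 10.3% of all genes, and that of Sfrp1 was more positive, as were 7.31% of all genes. With doxycycline those of Sp5, Tcf7 and Sfrp1 were more positive in KO cells, as were 9.11% of all genes, and that of Nkd1 more negative, as were 10% of all genes. For retinoic acid the number was 4 of 10 without WT untreated replicate 1, without KO retinoic acid replicate 2, or with DESeq2 in place of edgeR. These differences use the same untreated libraries for both treatments.

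**Figure D3:**
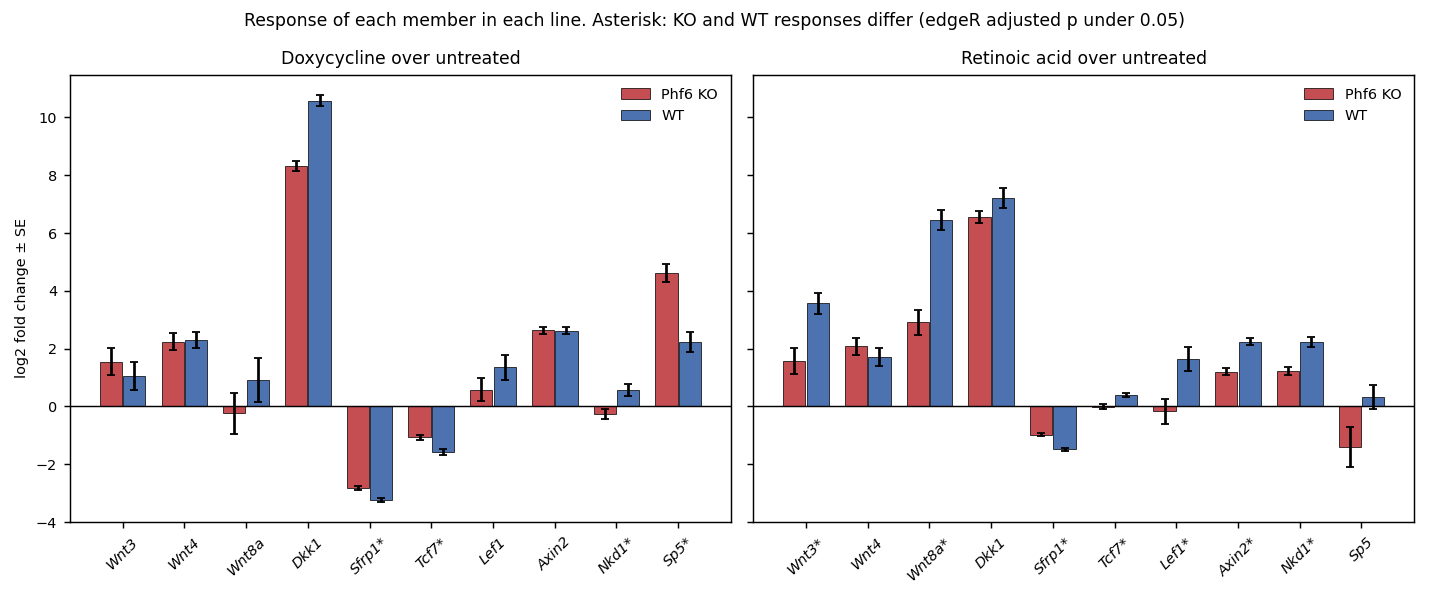
Log2 change over untreated cells (bars, ± SE) of each of the 10 genes with doxycycline and with retinoic acid, KO left and WT right; asterisks mark genes whose KO and WT responses differ by edgeR (adjusted p under 0.05). Bars of Dkk1, Wnt8a and Wnt3 rest on 2 to 12 untreated counts per group, and those of Sp5 and Lef1 on 13 to 24. The responses of Wnt8a to retinoic acid (2.91 in KO, 6.45 in WT cells) are the furthest apart among those marked.

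Levels of cell type markers moved with these groups. In bulk RNA, fewer cells of a type and less RNA per cell cannot be told apart. The summed CPM of 10 primitive endoderm markers was 5767 to 5890 in KO and 2626 to 2742 in WT cells with retinoic acid, and 92.5 to 164 in the 8 other libraries; all 10 were higher in KO than in WT cells with retinoic acid. That of 10 pluripotent stem cell markers was 1776 to 1808 in KO and 2747 to 2945 in WT cells with retinoic acid, with 9 of 10 lower in KO cells. These sums include Pou5f1, here made only from the transgene, at means of 982 CPM in KO and 1026 CPM in WT cells. Pou5f1 was the marker not called lower. The summed CPM of 10 trophectoderm markers was 1571 to 1677 in KO and 2512 to 2862 in WT cells with doxycycline, with 8 of the 9 tested lower in KO cells. Primitive streak and mesoderm markers, to which Wnt3 and Wnt8a are known to relate in the embryo, summed to 17.6 to 18.4 CPM in KO and 18.2 to 19.8 CPM in WT cells with retinoic acid, with Msgn1 at 0 in both and 1 of the 6 tested markers called in each direction. The sum of 10 neural markers was 269 to 280 CPM in KO and 130 to 136 CPM in WT cells with doxycycline, where Sp5, Tcf7 and Sfrp1 were higher in KO cells; 2 of the 8 tested were higher and 1 lower, and Neurog2 was at 0 in WT cells. With retinoic acid it was 115 to 117 CPM in KO and 112 to 115 CPM in WT cells. The neural sum was highest in untreated cells, at 418 to 420 CPM in KO and 433 to 441 CPM in WT cells. Both doxycycline groups thus lay below untreated cells. Markers of feeder fibroblasts summed to 29.9 to 34.9 CPM in KO and 15.4 to 16.1 CPM in WT cells with doxycycline, with 2 of the 8 tested higher and 0 lower in KO cells and with Lum and Fap at 0 in WT cells. They summed to 34.3 to 35.2 CPM in KO and 35.7 to 36 CPM in WT cells with retinoic acid, and to 34.4 to 36.9 CPM in KO and 25.5 to 28.4 CPM in WT untreated cells. In untreated cells, where Nkd1 was higher in KO cells, trophectoderm markers summed to at most 92.0 CPM in KO and at least 130 CPM in WT cells, with 7 of the 9 tested lower. The part of these cell types in the differences of the 10 genes was not tested.

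Other genes of the pathway, 91 in 8 lists, of which 81 were tested, also differed between KO and WT cells. With retinoic acid 37 passed (15 higher and 22 lower in KO cells), with doxycycline 46 (21 higher and 25 lower) and untreated 28 (14 higher and 14 lower), to be read against the 38.8%, 37% and 30% of all genes given above. For each list below, 18.8% of all genes were higher and 20% lower with retinoic acid, and 17.9% higher and 19.1% lower with doxycycline. Most counts lie within 2 genes of those shares; the furthest from them is that of targets and feedback genes lower with retinoic acid. Among other targets and intracellular feedback genes with retinoic acid, 7 of 11 tested were lower and 2 higher in KO cells. With doxycycline 4 of these 11 were lower and 4 higher in KO cells. Cdx1, a homeobox gene that both retinoic acid and Wnt signalling induce in the mouse embryo, had 10.3 and 12.1 CPM in KO and 73.1 and 69.6 CPM in WT cells with retinoic acid, a difference of -2.67 ± 0.12 (log2; adjusted p = 5e-13). Cdx2, a trophectoderm and posterior body regulator, differed by -1.49 ± 0.13 with retinoic acid (adjusted p = 3.8e-10) and by -2.95 ± 0.090 with doxycycline (adjusted p = 3.1e-20). The proto-oncogene Myc differed by -1.17 ± 0.12 with retinoic acid (adjusted p = 8.9e-09) and by -0.77 ± 0.066 with doxycycline (adjusted p = 1.9e-10).

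Of 12 other ligands tested, 1 was higher and 1 lower in KO cells with retinoic acid, fewer than the share of all genes (38.8%), and 1 was higher and 4 lower with doxycycline, near it (37%). Wnt6 had 7.82 and 5.91 CPM in KO and 43.3 and 49.3 CPM in WT cells with doxycycline (log2 difference -2.75 ± 0.12, adjusted p = 2.9e-16). With retinoic acid it had 1.17 and 0.784 CPM in KO and 5.89 and 5.88 CPM in WT cells (-2.57 ± 0.22, adjusted p = 1.9e-10); it lies on chromosome 1. Wnt7b, on chromosome 15, was lower in KO cells with doxycycline (-1.47 ± 0.11, adjusted p = 3.1e-11) and untreated (-2.22 ± 0.19, adjusted p = 3.7e-10). Of 15 receptors and coreceptors tested, 2 were higher and 3 lower in KO cells with retinoic acid, and 6 were higher and 6 lower with doxycycline. The Wnt receptor Fzd10 had 8.84 and 8.83 CPM in KO and 39.8 and 30.1 CPM in WT cells with retinoic acid (-1.99 ± 0.12, adjusted p = 1.1e-13). Fzd4 was ordered the other way, with 59.1 and 64.4 CPM in KO and 33.5 and 36.5 CPM in WT cells (0.82 ± 0.084, adjusted p = 6.3e-09). Fzd5, on chromosome 1, was lower in KO cells with retinoic acid (-0.98 ± 0.062, adjusted p = 4.5e-13) and with doxycycline (-0.78 ± 0.082, adjusted p = 1e-08). Fzd7, also on chromosome 1, had 96.0 and 95.2 CPM in KO and 227 and 247 CPM in WT cells with doxycycline (-1.31 ± 0.053, adjusted p = 2.4e-17). Fzd2 had 130 and 122 CPM in KO and 62.1 and 70.0 CPM in WT cells with doxycycline (0.93 ± 0.065, adjusted p = 3.2e-12), and was lower in untreated KO cells (-0.67 ± 0.17, adjusted p = 0.003).

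Of 10 other extracellular antagonists tested, 3 were higher and 2 lower in KO cells with retinoic acid, and 5 were higher and 2 lower with doxycycline, against 38.8% and 37% of all genes in either direction. Frzb, a secreted Wnt-binding protein, had 6.92 and 7.89 CPM in KO and 3.04 and 2.79 CPM in WT cells with retinoic acid (1.34 ± 0.20, adjusted p = 4.5e-06). Dkk3 was higher in KO cells with retinoic acid by 0.84 ± 0.077 (adjusted p = 8.5e-10), and Apcdd1, a membrane-bound Wnt inhibitor, was lower (-0.71 ± 0.10, adjusted p = 1.4e-06). Of 9 R-spondins, their receptors and ligases, which set how many Wnt receptors a cell keeps, 3 were higher and 0 lower in KO cells with retinoic acid; Rspo4 had 6.36 and 7.26 CPM in KO and 1.80 and 2.34 CPM in WT cells (1.72 ± 0.23, adjusted p = 5.7e-07). Of 12 genes of β-catenin and its destruction complex, 1 was higher and 4 lower in KO cells with retinoic acid; Amer1, which binds APC, was lower (-0.54 ± 0.061, adjusted p = 3.4e-08), as was the Dishevelled gene Dvl3 (-0.32 ± 0.077, adjusted p = 0.0015), and Apc2 was higher by 1.33 ± 0.16 (adjusted p = 2e-07). In untreated KO cells Rspo4 (1.12 ± 0.30, adjusted p = 0.0045) and Apc2 (0.81 ± 0.21, adjusted p = 0.0035) were also higher. Amer1 was also lower there (-0.46 ± 0.068, adjusted p = 4.5e-06). Dvl3 was also lower in KO cells with doxycycline (-0.66 ± 0.072, adjusted p = 1.7e-08). Of 2 secretion factors tested, 0 were higher and 1 lower in KO cells with retinoic acid, and 0 passed with doxycycline. Porcn, which attaches the lipid that Wnt proteins need, had a difference of -0.74 ± 0.056 with retinoic acid (adjusted p = 1.7e-11). The other, Wls, had 89.3 and 88.6 CPM in KO and 87.5 and 86.8 CPM in WT cells with retinoic acid. It was lower in untreated KO cells (-1.53 ± 0.11, adjusted p = 2.9e-11). Of 10 other TCF factors, coactivators and corepressors, 3 were higher and 4 lower with retinoic acid. There the corepressor Tle3 was lower (-0.36 ± 0.056, adjusted p = 7.4e-06) and Tcf7l2 higher (0.46 ± 0.10, adjusted p = 0.00079). Tle3 was also lower in KO cells with doxycycline (-0.38 ± 0.054, adjusted p = 1.9e-06) and untreated (-0.17 ± 0.056, adjusted p = 0.022).

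**Figure D4:**
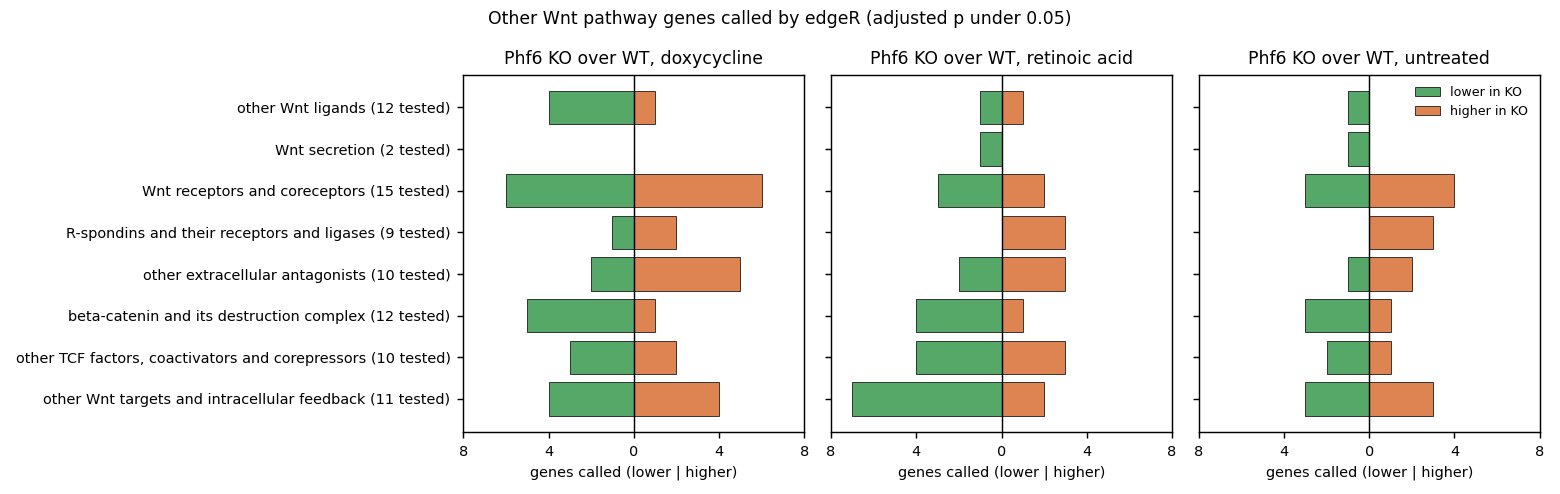
Number of other Wnt pathway genes lower (left of 0) or higher (right of 0) in KO than in WT cells by edgeR (adjusted p under 0.05), for 8 lists and 3 conditions. With retinoic acid 7 of 11 other targets and feedback genes are lower in KO cells and 2 higher, and with doxycycline receptors and coreceptors split into 6 lower and 6 higher.

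The patterns over the 12 libraries were shared with genes outside the pathway. By Pearson's r of log2(CPM + 0.5) over 14723 genes, the gene most like each was Gm4971 for Wnt8a (0.986), Nckap1l for Wnt3 (0.936), Tax1bp3 for Wnt4 (0.988), Ano6 for Dkk1 (0.992), Btbd2 for Sfrp1 (0.994), Rtkn2 for Tcf7 (0.983), Smg6 for Lef1 (0.915), Zfp36l3 for Axin2 (0.990), Klhl36 for Nkd1 (0.981) and Cd248 for Sp5 (0.974). These libraries fall into 6 groups, so the values describe likeness of group levels and are no test. Hoxd4, a homeobox gene that retinoic acid induces, came next for Wnt8a, with means of 2.00 CPM in KO and 5.68 CPM in WT cells with retinoic acid and at most 0.118 CPM in the other groups. Cd248 averaged 11.1 CPM in KO and 4.45 CPM in WT cells with doxycycline and at most 1.34 CPM elsewhere.

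Exons of Axin2 and Lef1 share bases with an antisense gene each in GENCODE M21 (Gm11670 and Gm43352), and the strand setting of the counting is not given in the sources used here. The antisense genes had at most 1 and 5 counts per library, and reads of a gene and its antisense partner cannot be told apart without strand.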

How the data were processed

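RNA-seq of 12 libraries was used. The submitters' processing notes name STAR 2.5.3a, RSEM 1.3.0, DESeq2 1.18.1 and the build mm10. Per the file headers, the authors deposited expected counts, which divide reads shared between genes by a model, and TPM, which is normalised to length and library. No strand setting or annotation release is given in the sources used here. Identifiers were matched to GENCODE M21 (GRCm38), and 53274 of 53379 were found.

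For the tests, expected counts were made whole by rounding. Genes were kept by edgeR's filterByExpr (minimum count 10), which left 17884. All 12 libraries were fitted together by robust quasi-likelihood in edgeR 4.0.16 (R 4.3.3, limma 3.58.1, TMM scaling) in a model with a term for every group, leaving 6 residual degrees of freedom. The 9 contrasts were KO against WT in 3 conditions, treated against untreated for both treatments in both lines, and KO minus WT responses. P-values were adjusted by Benjamini-Hochberg over all genes tested, with a threshold of 0.05. Standard errors came from the log2 fold change and its F statistic, and can be too small for genes with few reads. CPM used rounded counts over TMM-scaled library sizes. Intervals of ratios of summed counts were exact 95% binomial intervals; like the limit of 3 counts they hold for counting error alone, as reads lacking molecular identifiers are not independent molecules. Deposited TPM served to compare levels between genes and in 1 alternative (limma on log2(TPM + 0.5)).

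Between replicates the chi-square per degree of freedom was 1.89 to 6.29, above sampling noise. Named genes were the 10 genes, Phf6 and Pou5f1 as checks of the labels, per pathway list at most the 3 called genes of smallest adjusted p in a comparison with a mean of at least 1 CPM, and the genes most like each of the 10. The 10 genes, the lists and the rules were chosen with earlier results of these data known. Other settings tried were DESeq2 1.42.0 and its size factors, upper-quartile scaling, no filter, only the libraries compared, a replicate block, limma on TPM, each library left out, and, chosen after seeing the data, no chromosome 1 genes and crossed replicate numbers. Tested on simulated data, the fit missed some of the largest changes, all in genes with few reads, and recovered fewer than first required.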

Additional observations from a re-analysis of the deposited data

Results flagged for a closer look

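A test of the difference between the KO and WT responses passed for 11 values of the 10 genes, given here as log2 response in KO minus response in WT cells; none was weighed further. For retinoic acid these were Wnt8a at -3.54, Wnt3 at -1.99, Lef1 at -1.80, Axin2 at -1.04, Nkd1 at -1.0, Tcf7 at -0.41 and Sfrp1 at 0.51. For doxycycline they were Sp5 at 2.40, Tcf7 at 0.52, Sfrp1 at 0.43 and Nkd1 at -0.83. Tcf7 differed in opposite directions with the 2 treatments, and Nkd1 and Sfrp1 in the same direction; the values of both treatments share the untreated libraries.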

How the results depend on the processing

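Over 9 comparisons and 9 other settings, 719 changes of the 10 genes were recomputed: 701 kept their side of the threshold and were counted as unchanged, 14 lost the call, 2 gained it and 2 turned round. The 2 that turned round were by limma on TPM: Tcf7 with retinoic acid in KO cells (0.50) and the Dkk1 difference of retinoic acid responses (1.12). A change of sign between values that were both not called was also counted as unchanged. There were 30 of these over the other settings and the fits with 1 library left out together. With 1 library left out, 1042 of 1080 values kept their call, 31 lost it and 7 gained it. The number of the 10 genes called then ranged from 1 to 2 for KO over WT in untreated cells and from 4 to 7 for the difference of retinoic acid responses, which was also 4 with DESeq2. Genes called in all numbered 3363 for KO over WT untreated by limma on TPM, 2232 (DESeq2) and 1799 (limma on TPM) for the difference of doxycycline responses, and 1941 (DESeq2) and 1751 (limma on TPM) for that of retinoic acid responses, against 5369, 3425 and 3157. Causes were not tested. Upper-quartile scaling raised the share of higher calls to 60.6%, against 48.3%, for KO over WT with doxycycline, and to 61.9%, against 47.6%, for the difference of doxycycline responses. By limma on TPM 80.3% (WT) and 76.9% (KO) of retinoic acid calls were higher, against 55.5% and 54.2%.

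Replicate numbers did not pair the libraries in one common way: deviations of same-numbered libraries correlated at -0.235 to 0.192 over group pairs. The lowest value was between KO and WT cells with doxycycline, the highest between untreated and doxycycline KO cells. Whether some libraries share a batch was not tested. The replicate block moved no count of the 10 genes (1, 3 and 8 called for KO over WT untreated, with doxycycline and with retinoic acid) and gave 5215, 6471 and 6806 genes in all. With the numbers of the KO doxycycline libraries crossed, 3 of the 10 genes and 6706 genes were called between KO and WT cells with doxycycline. Depth limits Wnt3, Wnt8a, Lef1, Sp5 and untreated Dkk1, whose smallest groups held 2 to 16 counts.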
